A study of Mus musculus with 17 samples.

Results

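The 10 genes described here are Nfe2l2, Keap1, Gclc, Gclm, Slc7a11, Nqo1, Hmox1, Txnrd1, Gpx3 and Sod2, taken as a named list of the NRF2 antioxidant programme out of 55413 genes annotated in the mouse genome. Open chromatin around them was read by ATAC-seq, in which a transposase inserts sequencing adapters where DNA is accessible, in kidneys of 17 male mice that were 8 weeks old when the experiment began. The Ctrl group held 5 wild-type C57BL/6 mice given saline, and the Case group held 6 db/db mice (BKS.Cg-Dock7m +/+ Leprdb/J, which lack a working leptin receptor and become obese and diabetic) given saline. The Dapa group held 6 mice of the same db/db strain that received 1 mg/kg of dapagliflozin daily for 6 weeks, a drug that blocks glucose reabsorption by SGLT2 in the proximal tubule. Ctrl mice differed from both db/db groups in genotype, diabetes and background strain together, and these cannot be told apart. Each library came from 20000 cells of 1 mouse. Case libraries are numbered 1 to 6 and Dapa libraries 7 to 12, as in the sample names.

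NRF2, encoded by Nfe2l2, is a transcription factor that is held in the cytoplasm by KEAP1 and passed to a CUL3 ubiquitin ligase for destruction. Oxidants or electrophiles modify cysteines of KEAP1, NRF2 escapes, pairs with a small MAF protein and binds antioxidant response elements near its target genes. The targets make glutathione, import cystine for it, reduce quinones and thioredoxin and break down haem, and in the kidney they protect the tubule cells, which consume much oxygen. Gpx3, the glutathione peroxidase of plasma, is made largely by the kidney's proximal tubule. Sod2 encodes the mitochondrial superoxide dismutase and is also regulated by other stress pathways.

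Each library was a list of summits, the points of highest signal within peaks, each with a score on a −log10 p or q scale. Lists held 37402 to 56659 summits in Ctrl, 29702 to 51292 in Case and 32846 to 49442 in Dapa, so the 29702 highest-scoring summits of each library were compared. A summit's rank percentile is its place by score in that equal-length list, from 100 for the highest, and 0 stands for no summit. Group values are means ± SD over mice, n = 5 in Ctrl and n = 6 in each of Case and Dapa. A gene's level below is the rank percentile of its best summit between 10 kb upstream and the end of the gene. It ranks a site within its own library and does not measure accessibility in reads, and RNA was not analysed here. In whole kidney, fewer cells of a type and less accessibility per cell cannot be told apart.

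Of 17 kidney epithelium markers, 8 to 12 had a summit within 1 kb of a start in each library, among them Lrp2, Slc12a3, Pax8 and Cdh16 in all 17, while Slc12a1 and Aqp2 had none. Of 13 leukocyte markers, 0 to 1 had one in Ctrl libraries, 6 in Case 3 and 4 in Dapa 8, against 0 to 1 in the other Case and 0 to 2 in the other Dapa libraries. Coro1a had one in 6 libraries, Laptm5 in 3, and Cd68 and Tyrobp in 2 each. Ptprc and Itgam had none there. Anywhere in the gene window, Cd68 and Csf1r had a summit in all 17 libraries, Cd79a in 16, Cd3e in 13 and each of the remaining markers, Ptprc and Itgam among them, in 8 or fewer. Of 10 endothelial and stromal markers, 0 to 1 had one in every group. Case 3 and Dapa 8 also stood apart by the regions they shared. Of 12325 regions found in exactly 2 libraries, 926 (7.51%) were in this pair, against 321 (2.60%) in the next of the 136 pairs, Case 3 and Case 4. At most 0.949% of summit positions were identical in any pair of libraries.

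Merging the summits of all libraries gave 39 regions at the 10 genes that were present in at least 2 libraries, out of 52371 in the genome. A region is named by its gene and the distance in bp of its median summit from the annotated start of that gene, negative upstream. Of the 39 regions, 15 lay within 1 kb of an annotated transcription start, 14 in an intron, 9 upstream and 1 in an exon. The core letters of the antioxidant response element, TGACNNNGC on either strand, occurred within 150 bp of the median summit in 13 regions (33.3%) at 8 genes, against 14.1% of all 52371 regions. Among the 10 regions present in all 17 libraries, 5 held it (50.0%), against 16.8% of the 7866 such regions of the genome. The stricter word TGACTCAGC, which also contains the AP-1 word TGACTCA, occurred in 4 of the 39 regions (10.3%) and in 0.882% of all regions. TGACTCA itself occurred in 6 of 39 (15.4%) and in 6.42% of all. These are letter matches and not measured binding.

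The matches that carry this description are printed below with 30 bases on either side, the matching letters in capitals, 5′ to 3′ on the strand on which they read TGACNNNGC. All come from RefSeq's GRCm38.p6 genome, minus strand. Hmox1 -9620 (chr8:75083919-75084044) is shown because it alone held 3 matches of the stricter word, and Hmox1 -3979 (chr8:75089668-75089788) because it held 2 of the core. Gclc -3747 (chr9:77750715-77750783) is an upstream region found in every library. Gclm -59 (chr3:122245393-122245461) and Txnrd1 +25161 (chr10:82859084-82859152) are start-site regions found in every library. Sod2 +965, likewise a start-site region found in every library and holding the core letters, is not printed, and its match lies 121 bp from the summit, farther than those shown.
Hmox1 -9620: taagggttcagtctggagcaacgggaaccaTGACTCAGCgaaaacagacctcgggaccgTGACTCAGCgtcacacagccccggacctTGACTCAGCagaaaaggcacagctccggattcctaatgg
Hmox1 -3979: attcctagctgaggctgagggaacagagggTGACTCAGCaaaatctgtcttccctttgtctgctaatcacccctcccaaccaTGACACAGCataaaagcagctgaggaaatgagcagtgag
Gclc -3747: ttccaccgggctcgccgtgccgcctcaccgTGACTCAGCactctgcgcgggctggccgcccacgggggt
Gclm -59: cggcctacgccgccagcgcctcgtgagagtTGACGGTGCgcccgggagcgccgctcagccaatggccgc
Txnrd1 +25161: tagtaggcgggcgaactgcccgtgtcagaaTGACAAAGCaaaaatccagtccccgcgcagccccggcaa

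In RefSeq's promoter table (300 bases per promoter, GRCm38.p6), 8 of the 10 genes had an entry, with 10 promoters. The core letters occurred in 3 of them, 1 each of Nfe2l2, Gclm and Txnrd1, and in 12.4% of the 32851 promoters of the table. Gclc and Hmox1 were the genes without an entry.

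All members but Keap1 and Slc7a11, 8 in number, had a summit in every equal-length list. Keap1 had one in 16 libraries and Slc7a11 in 13, and in the complete lists both had one in all 17. By the median over the 17 libraries the order of levels was Sod2 (93.9), Nfe2l2 (93.1), Gclm (83.9), Gpx3 (79.5), Txnrd1 (77.8), Hmox1 (77.5), Gclc (75.7), Keap1 (59.5), Nqo1 (55.5) and Slc7a11 (19.4). For no neighbouring pair in this order did the mean difference within libraries exceed its SD. By the median difference 2 pairs did: Nfe2l2 over Gclm by 9.08 (SD 7.58) and Nqo1 over Slc7a11 by 38.8 (SD 37.6), each higher in 14 of 17 libraries. The SD over libraries was lowest for Sod2 (3.87) and Nfe2l2 (4.28) and highest for Slc7a11 (26.4), Nqo1 (21.4) and Keap1 (20.6).

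**Figure D1:**
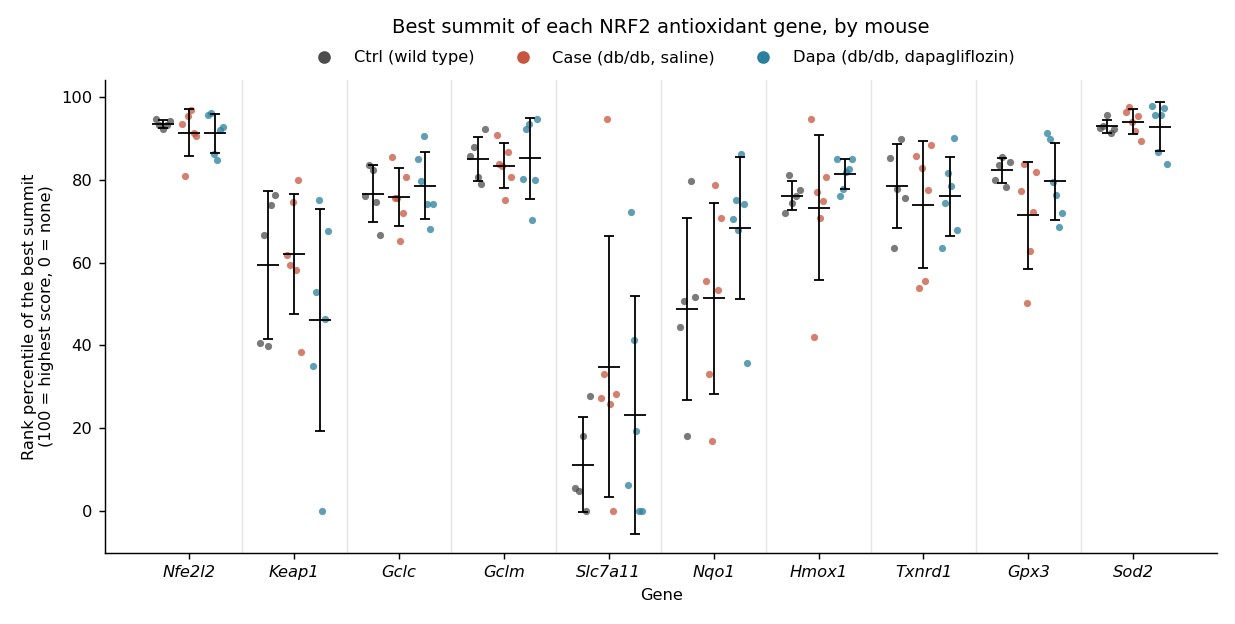
Rank percentile of the best summit (vertical axis, 100 the highest score in the library and 0 no summit) of the 10 genes in each mouse. Points are libraries, coloured by group (5 Ctrl, 6 Case, 6 Dapa), and bars are mean ± SD. Sod2 and Nfe2l2 stayed above 80 in every library, while Slc7a11 ranged from 0 to 94.5.

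Of the 39 regions, 10 (25.6%) were present in all 17 libraries, against 15% of the 52371 regions in the genome. They lay at 7 genes and were Nfe2l2 +79, Gclc -3747, Gclc +77, Gclm -59, Hmox1 -9620, Hmox1 -31, Txnrd1 +25161, Gpx3 -4807, Gpx3 +351 and Sod2 +965. Of the remaining regions, 7 were present in exactly 2 libraries. A mouse had 21.6 ± 2.51 of the 39 regions in Ctrl, 20 ± 2.53 in Case and 22.8 ± 2.99 in Dapa. These means are 55.4%, 51.3% and 58.5% of the member regions, beside 51.2%, 45.2% and 47.6% for all regions of the genome. The gap was widest in the libraries that stood apart: Case 3 held 61.5% of the member regions and 37.4% of all regions, and Dapa 8 held 71.8% and 46.6%.

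**Figure D2:**
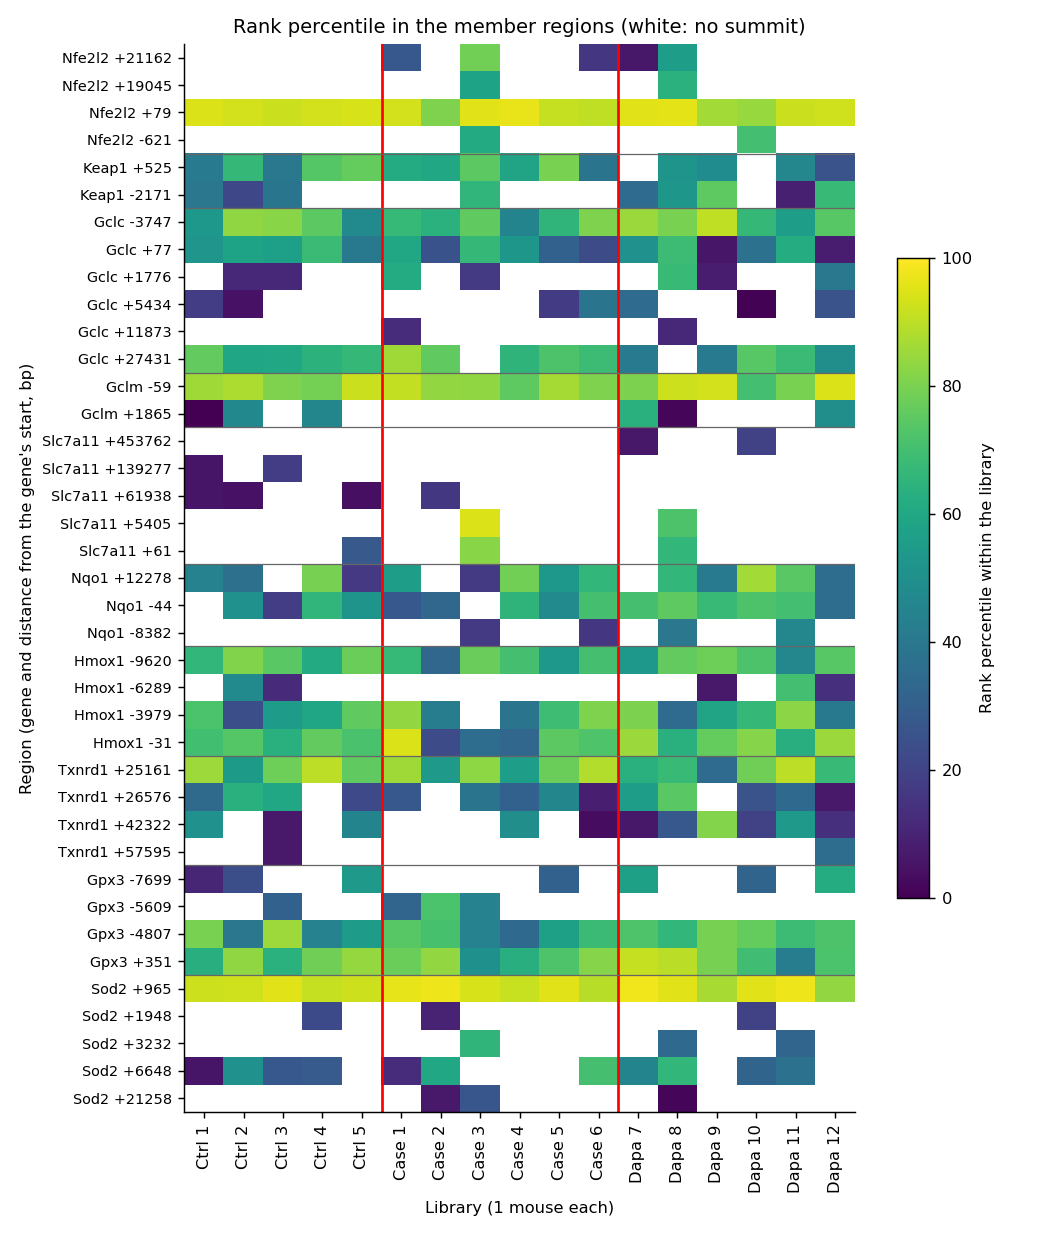
Rank percentile (colour, 0 to 100; white, no summit) of the 39 regions, in rows, in the 17 libraries, in columns, with red lines between Ctrl, Case and Dapa. The 10 constant rows are filled in every library, and Slc7a11 +5405 and Nfe2l2 +19045 are filled in Case 3 and Dapa 8 and nowhere else. In the complete lists, not drawn here, Nfe2l2 +19045 was present in 2 Case libraries and 1 Dapa library.

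The 10 genes went both ways, and in the equal-length lists their median difference between groups was below 4.75 percentile points. That value is the within-group SD of the libraries' median member level. It is a spread between single mice in these lists and not the error of a difference between group means. The median difference was -1.27 for Case against Ctrl, 1.89 for Dapa against Case, 0.00387 for Dapa against Ctrl and -0.127 for db/db against Ctrl. The medians over 28501 genes tested were -0.191, 0, 0 and -0.0112. With all summits the members' median was -4.87 for Case against Ctrl, slightly beyond that SD. There each percentile is taken within the library's own complete list, so the same rank scores higher in a longer list. Ctrl lists were the longest on average (45444 summits, against 37299 in Case). The part of list length in this value was not tested. The same holds for every other percentile difference given with all summits or the complete lists. Within 1 kb of a start it was -0.692 for Dapa against Case. Case against Ctrl, Dapa against Ctrl and db/db against Ctrl share the Ctrl libraries, and Dapa against Case shares the Case or Dapa libraries with the others. No member passed an adjusted p of 0.05 in any comparison, and no gene in the genome did (0% of 28501 in each; exact permutation test, Benjamini-Hochberg), the smallest adjusted p over all genes being 0.267, 1, 0.284 and 0.0687. At an unadjusted p under 0.05, 0 members differed between Case and Ctrl, where 3.68% of all genes were higher and 7.18% lower. For Dapa against Case it was again 0 members, with 1.88% of genes higher and 1.38% lower. Dapa against Ctrl gave 1 member, Hmox1, higher, against 4.28% of genes higher and 6.81% lower. All db/db against Ctrl gave 0 members, against 4.16% of genes higher and 8.07% lower. A share of 1 in 10 genes is 1 gene, and nothing about the list can be read from it.

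**Figure D3:**
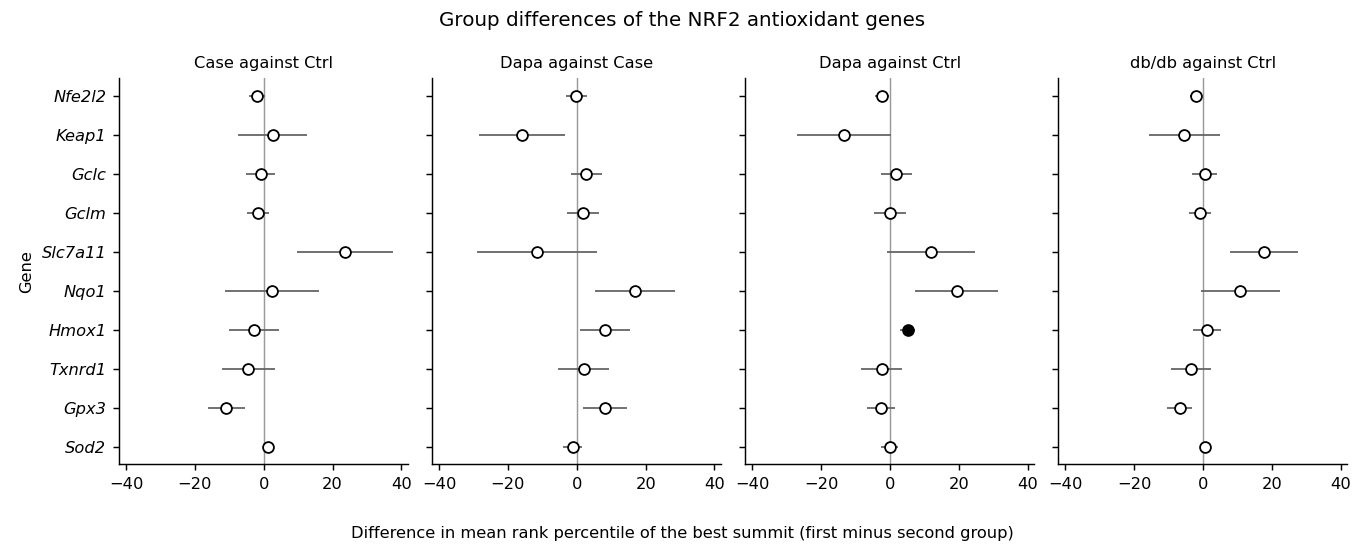
Difference between group means in the rank percentile of the best summit (horizontal axis, first group minus second, in percentile points) for the 10 genes in 4 comparisons. Bars are the standard error of the difference from the libraries of both groups, and the filled point marks an unadjusted exact permutation p under 0.05. Hmox1 in Dapa against Ctrl, at 5.24, is the filled point.

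Of the regulators, Nfe2l2 (ENSMUSG00000015839.6, chr2:75675513-75704641) had its best summit at the start region Nfe2l2 +79 in all 17 libraries. The median summit of that region also lay 208 bp from a start of another gene, E030042O20Rik. Nfe2l2 averaged 93.4 ± 0.980 in Ctrl, 91.4 ± 5.69 in Case and 91.2 ± 4.73 in Dapa. The Ctrl libraries lay between 92.1 and 94.7, and those of both db/db groups spread to either side of them, with the lowest value, 80.8, in Case 2 and the highest, 96.8, in Case 4. The intronic region Nfe2l2 +21162 was absent from all 5 Ctrl and present in 3 Case and 2 Dapa libraries, Case 3 and Dapa 8 included. In the complete lists it was present in 1 Ctrl, 3 Case and 3 Dapa libraries.

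Keap1 (ENSMUSG00000003308.15, chr9:21229730-21239361) encodes the sensor that holds NRF2. Its start region, Keap1 +525, lay 23 bp before an annotated start. Every Ctrl and Case library had it, as did 4 of 6 Dapa libraries. The rank percentile there was 40.6, 66.7, 39.9, 73.8 and 76.4 in Ctrl 1 to 5. It ran from 38.4 through a median of 60.6 to 79.9 in Case, and from 0 through 35.9 to 51.8 in Dapa. Dapa 7 and Dapa 10 had no summit there in the equal-length lists, and the ranges of the 3 groups overlap. Compared over libraries, a test added after the values were seen, the mean in Dapa (28.7 ± 24.1) was lower than in Case (62.1 ± 14.5) by -33.4 percentile points (exact permutation p = 0.0195, adjusted p = 1 over all regions), and 2.13% of all 52371 regions passed the same unadjusted threshold. The gene window from 2 kb upstream, which holds this region and not the one farther out, gave the same difference. Against Ctrl (59.5 ± 17.9) the difference was -30.8 (exact permutation p = 0.0476, adjusted p = 0.555), where 7.87% of regions passed. In the complete lists the region was present in 5 of 6 Dapa libraries. The upstream region Keap1 -2171 was present in 5 of 6 Dapa, 1 of 6 Case and 3 of 5 Ctrl libraries (Dapa against Case, Fisher's exact p = 0.0801), and the one Case library with it was Case 3. Without that library, which stood apart as described above, it was 5 of 6 against 0 of 5 (Fisher's exact p = 0.0152). Leaving it out also removes the only Case presence. Dapa 8, which stood apart too, held the region at 52.8 and was kept here. With all libraries, 1.18% of testable regions passed an unadjusted 0.05 in Dapa against Case. Over the whole window, where either region can be the best, Keap1 stood at 59.5 ± 17.9 in Ctrl, 62.1 ± 14.5 in Case and 46.1 ± 26.8 in Dapa, and Dapa against Case was -15.9 (exact permutation p = 0.242).

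Gclc (ENSMUSG00000032350.9, chr9:77754535-77794485) and Gclm (ENSMUSG00000028124.15, chr3:122245557-122270732) encode the catalytic and the modifier subunit of glutamate-cysteine ligase, the first enzyme of glutathione synthesis. Gclc stood at 76.6 ± 6.79 in Ctrl, 75.7 ± 7.01 in Case and 78.6 ± 8.16 in Dapa. Its best summit lay in the upstream region Gclc -3747, one of the sequences printed above, in 9 libraries, and in the intronic region Gclc +27431 in the other 8, and never in the start region Gclc +77. The start region was nevertheless present in all 17 libraries, at 54.9 ± 10.0 in Ctrl, 43.2 ± 18.9 in Case and 38.7 ± 26.9 in Dapa. Gclc +27431 was present in 5 libraries of each group and was missing from Case 3 and Dapa 8.

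Gclm had its best summit at Gclm -59 in all 17 libraries, at 85.0 ± 5.32 in Ctrl, 83.4 ± 5.37 in Case and 85.1 ± 9.84 in Dapa. The intronic region Gclm +1865 was present in 0 of 6 Case libraries, 3 of 5 Ctrl and 3 of 6 Dapa (Case against Ctrl, Fisher's exact p = 0.0606, the smallest that a region present in 3 of these libraries allows). In the complete lists it was present in 1 Case library.

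Slc7a11 (ENSMUSG00000027737.10, chr3:49892526-50443614) encodes the cystine transporter xCT and spans 551 kb in the annotation, so most of its window is intron. It was at 5.52, 4.81, 18.1, 0 and 27.9 in Ctrl 1 to 5. It ran from 0 through a median of 27.8 to 94.5 in Case, and from 0 through 12.9 to 72.2 in Dapa. The highest values of the db/db groups were those of Case 3 and Dapa 8. Both came from Slc7a11 +5405, an intronic region found in these 2 libraries alone. The difference of Case (34.9 ± 31.5) from Ctrl (11.3 ± 11.5) was 23.6 (exact permutation p = 0.104, adjusted p = 0.563) and fell to 11.6 without Case 3 (exact permutation p = 0.167). For all db/db against Ctrl it was 17.8 (exact permutation p = 0.204, adjusted p = 0.686) and, without Case 3 and Dapa 8, 6.89 (exact permutation p = 0.381). With all summits Case stood 8.58 above Ctrl (exact permutation p = 0.591) while all db/db stood 4.62 above it (exact permutation p = 0.723). The start region Slc7a11 +61 was present in 1 library of each group, Ctrl 5, Case 3 and Dapa 8, and in 1 more Dapa library in the complete lists.

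Farther into the gene, Slc7a11 +61938 was found in 3 of 5 Ctrl libraries, 1 of 6 Case libraries and 0 of 6 Dapa libraries, at rank percentiles of 4.24 to 5.52 in Ctrl and 16.2 in Case 2. Dapa against Ctrl gave a Fisher's exact p of 0.0606, again the smallest attainable, and all db/db against Ctrl (1 of 12) one of 0.0525. In the complete lists, which differ in length, the same place was found in every Ctrl library, in 2 of 6 Case libraries and in 0 of 6 Dapa libraries. Fisher's exact p was then 0.00216 for Dapa against Ctrl and 0.00339 for all db/db against Ctrl, where 7.6% and 8.67% of testable regions passed an unadjusted 0.05. Ctrl lists were longer on average (45444 summits against 37299 in Case and 40575 in Dapa), and the part of list length in this result was not tested. The region Slc7a11 +453762 was present in 2 Dapa libraries and in no other. In the complete lists, where it reaches farther and its median lies at +453878, it was present in 5 of 6 Dapa, 0 of 6 Case and 2 of 5 Ctrl libraries (Dapa against Case, Fisher's exact p = 0.0152), and 0.907% of testable regions passed.

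Of the detoxifying and reducing enzymes, Nqo1 (ENSMUSG00000003849.8, chr8:107388225-107403206), a quinone reductase, was among the most variable members. Its level was 44.4, 50.6, 18.1, 79.7 and 51.6 in Ctrl 1 to 5. It ran from 16.8 through a median of 54.5 to 78.6 in Case, and from 35.7 through 72.4 to 86.2 in Dapa. In Dapa, 5 of 6 libraries lay at 67.8 or above and Dapa 12 at 35.7, and the groups overlap. Dapa (68.3 ± 17.2) differed from Case (51.4 ± 23.1) by 16.9 (exact permutation p = 0.186, adjusted p = 1) and, without Case 3 and Dapa 8, by 8.60 (exact permutation p = 0.476). Against Ctrl (48.9 ± 22.0) the gene's level in Dapa differed by 19.4 (exact permutation p = 0.141, adjusted p = 0.623). At the start region Nqo1 -44 alone, in the test added after the values were seen, Dapa stood at 65.2 ± 14.7 and Ctrl at 37.3 ± 27.2. The difference was 27.9 (exact permutation p = 0.0455, adjusted p = 0.555), in a comparison where 7.87% of all regions passed. The planned gene window within 1 kb of a start gave the same difference (exact permutation p = 0.0455, adjusted p = 0.384). Every Dapa library had Nqo1 -44, as did 5 of 6 Case and 4 of 5 Ctrl libraries. The complete lists added the fifth Ctrl library. The intronic region Nqo1 +12278 was present in 14 libraries and reached its highest rank percentile, 86.2, in Dapa 10.

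**Figure D4:**
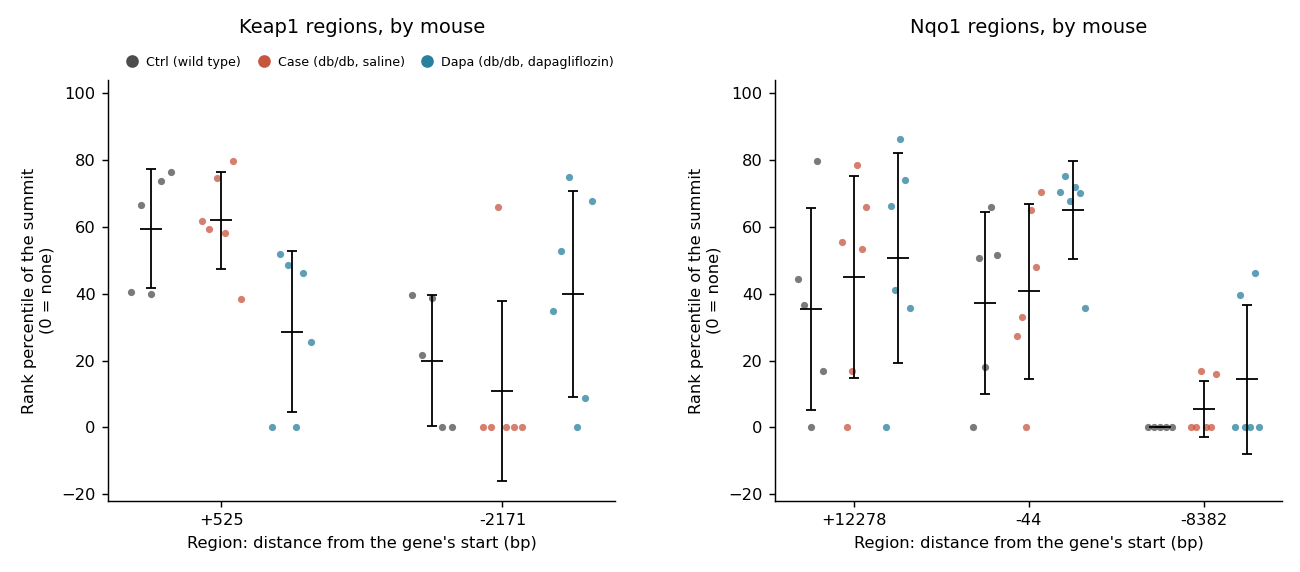
Rank percentile (vertical axis, 0 for no summit) in the regions of Keap1 (left) and Nqo1 (right), each labelled by its distance in bp from the start of the gene and not drawn to scale along that axis. Points are libraries, coloured by group, and bars are mean ± SD. At Keap1 +525 all 6 Dapa libraries lie at or below 51.8, and at Nqo1 -44 5 of 6 Dapa libraries lie at 67.8 or above.

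Hmox1 (ENSMUSG00000005413.8, chr8:75093621-75100589) encodes haem oxygenase 1, which breaks haem into biliverdin, iron and carbon monoxide. Its level was 71.9, 81.1, 74.3, 76.1 and 77.5 in Ctrl 1 to 5. It ran from 42 through a median of 75.9 to 94.6 in Case, and from 76.1 through 82.2 to 85.0 in Dapa. In Dapa, 4 of 6 libraries lay above every Ctrl library, while the Case libraries spread over both. Dapa (81.4 ± 3.68) was higher than Ctrl (76.1 ± 3.45) by 5.24 (exact permutation p = 0.0411, adjusted p = 0.415), and by 6.30 without Dapa 8 (exact permutation p = 0.0159). Leaving out 1 of the 11 libraries at a time, the difference stayed between 4.17 and 6.47 and the unadjusted exact permutation p was 0.05 or more in 8 of the 11 cases, up to 0.0810. With the complete lists it was 1.98 (exact permutation p = 0.394), and within 1 kb of a start 5.00 (exact permutation p = 0.310). Case against Ctrl was -2.87 (exact permutation p = 0.760) and Dapa against Case 8.12 (exact permutation p = 0.338).

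The best Hmox1 summit lay at Hmox1 -9620 in 7 libraries, at the start region Hmox1 -31 in 6 and at Hmox1 -3979 in 4. Hmox1 -9620 and Hmox1 -31 were present in all 17 libraries and Hmox1 -3979 in all but Case 3. These upstream regions are those whose sequences hold 3 and 2 matches of the core letters. In Hmox1 -9620 the rank percentile averaged 72.1 ± 8.15 in Ctrl, 62.0 ± 16.2 in Case and 66.6 ± 13.4 in Dapa. In Hmox1 -31 it averaged 70.8 ± 4.83, 55.6 ± 28.8 and 75.8 ± 10.2. Case libraries split widely there, from 22.9 in Case 2 to 94.6 in Case 1. The remaining region, Hmox1 -6289, was present in 0 of 6 Case libraries, 2 of 5 Ctrl and 3 of 6 Dapa, and the complete lists added 1 Ctrl library.

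**Figure D5:**
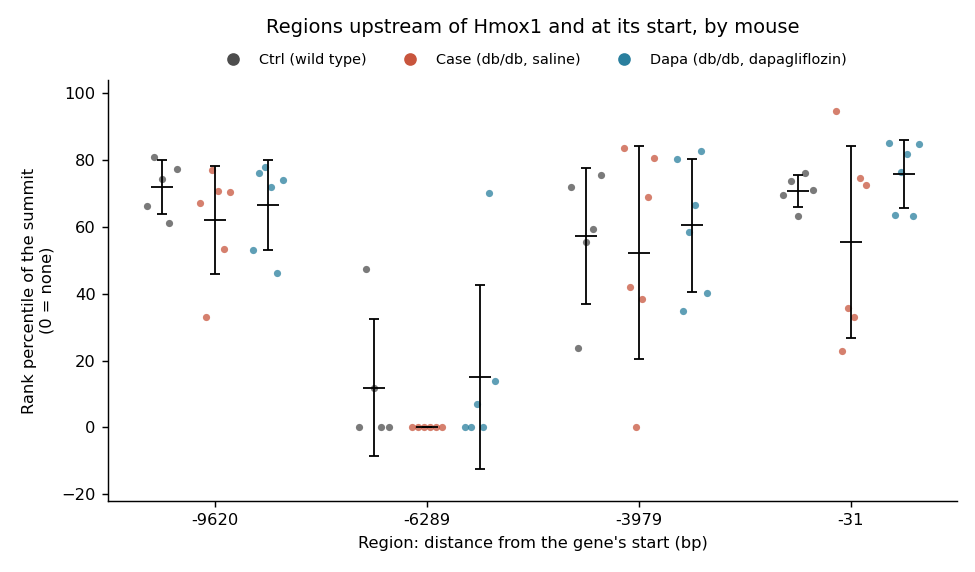
Rank percentile (vertical axis, 0 for no summit) in the 4 regions of Hmox1, each labelled by its distance in bp from the start of the gene and not drawn to scale along that axis. Points are libraries, coloured by group, and bars are mean ± SD. The region at -9620 and the start region at -31 hold a summit in all 17 libraries, and no Case library has one at -6289.

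Txnrd1 (ENSMUSG00000020250.10, chr10:82833951-82897712), the cytosolic thioredoxin reductase, had its main region at an internal start. Txnrd1 +25161 lay 67 bp before an annotated start, was present in all 17 libraries and was the best summit in 14. The gene averaged 78.4 ± 10.1 in Ctrl, 74.0 ± 15.3 in Case and 76.0 ± 9.55 in Dapa. A second start region, Txnrd1 +26576, was present in 14 libraries. The intronic region Txnrd1 +42322 was present in 6 of 6 Dapa, 2 of 6 Case and 3 of 5 Ctrl libraries, at 3.35 to 81.6 where present. Dapa against Case gave a Fisher's exact p of 0.0606, the smallest that a region present in this number of libraries allows, so it could not pass 0.05. In the complete lists it was present in 6 of 6 Dapa, 3 of 6 Case and 4 of 5 Ctrl libraries.

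Gpx3 (ENSMUSG00000018339.11, chr11:54902453-54910377) was at 79.8, 83.4, 85.5, 78.2 and 84.2 in Ctrl 1 to 5. It ran from 50.2 through a median of 74.8 to 83.9 in Case, and from 68.5 through 77.9 to 91.3 in Dapa. In Case, 4 of 6 libraries lay below every Ctrl library, and Case 3 was the lowest. Case (71.4 ± 12.8) differed from Ctrl (82.2 ± 3.09) by -10.8 (exact permutation p = 0.0909, adjusted p = 0.535) and, without Case 3, by -6.60 (exact permutation p = 0.135). Within 1 kb of a start, and in the window from 2 kb upstream, it differed by -3.14 (exact permutation p = 0.647). Dapa (79.6 ± 9.30) differed from Case by 8.17 (exact permutation p = 0.236, adjusted p = 1) and, without Case 3 and Dapa 8, by 1.90 (exact permutation p = 0.730), and within 1 kb of a start by 2.60 (exact permutation p = 0.777). All db/db against Ctrl was -6.75 (exact permutation p = 0.223, adjusted p = 0.71), and -8.19 to -4.45 with 1 mouse left out at a time. Within 1 kb of a start it was -1.84 (exact permutation p = 0.811). The best summit was at the start region Gpx3 +351 in 12 libraries and at the upstream region Gpx3 -4807 in 5, and both regions were present in all 17. The upstream region Gpx3 -5609 was present in 3 of 6 Case, 1 of 5 Ctrl and 0 of 6 Dapa libraries, and in 4, 1 and 1 of them in the complete lists.

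Sod2 (ENSMUSG00000006818.5, chr17:13006846-13040063) had its best summit at Sod2 +965, 6 bp before an annotated start, in all 17 libraries. It averaged 92.9 ± 1.61 in Ctrl, 94.0 ± 3.01 in Case and 92.8 ± 5.97 in Dapa. The lowest library was Dapa 12 at 83.8 and the highest Dapa 7 at 97.7, so the 6 Dapa libraries spanned those of both other groups. The exonic region Sod2 +6648 was present in 4 Ctrl, 3 Case and 4 Dapa libraries.

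Presence of the 39 regions was compared by Fisher's exact test. No member region passed an unadjusted 0.05 in Case against Ctrl, Dapa against Case, Dapa against Ctrl or all db/db against Ctrl. Of the regions whose number of libraries allowed such a p, 8, 5, 5 and 18 were at the members. Over the genome 10.2%, 1.18%, 7.91% and 9.29% of such regions passed, and 0% did after adjustment, the smallest adjusted p over all regions being 0.136, 1, 0.178 and 0.0836 by Fisher's exact test.

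Of 56 other genes of the pathway, listed by function, 55 could be tested and none passed an adjusted p of 0.05 (exact permutation test, Benjamini-Hochberg). At an unadjusted p under 0.05, 2 were higher and 1 lower in Case than in Ctrl, 3.64% and 1.82% of 55. For Dapa against Case it was 1 higher and 1 lower, 1.82% each. For Dapa against Ctrl it was 2 higher and 3 lower, 3.64% and 5.45%. For all db/db against Ctrl it was 4 higher and 3 lower, 7.27% and 5.45%. These shares stand near or below those of all genes given above, except that of the 4 higher in db/db. The counts moved with the settings. Over the alternatives and with 1 mouse left out at a time, 0 to 4 were higher and 0 to 4 lower for Case against Ctrl, with 1 higher and 4 lower when all summits were used. The range was 0 to 2 in either direction for Dapa against Case. For Dapa against Ctrl it was 0 to 6 higher, the 6 without Ctrl 5, and 2 to 5 lower, and for all db/db it was 1 to 4 in either direction.

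Sqstm1, whose product p62 binds KEAP1, had the smallest p of the pathway in Case against Ctrl and in all db/db against Ctrl. It stood at 64.7 ± 18.0 in Ctrl, 88.7 ± 6.38 in Case and 84.8 ± 9.22 in Dapa, and 5 of 6 Case libraries lay above every Ctrl library. The difference was 24.0 for Case against Ctrl (exact permutation p = 0.00649, adjusted p = 0.294) and 22.0 for all db/db against Ctrl (exact permutation p = 0.00162, adjusted p = 0.119). Without Case 3 and Dapa 8, Case against Ctrl was 22.8 (exact permutation p = 0.0159), while all db/db against Ctrl was 20.5 (exact permutation p = 0.00333). Ctrl 1 lay at 33.9 and the other Ctrl libraries at 66.2 to 80.5, and without Ctrl 1 Case stood 16.2 above Ctrl (exact permutation p = 0.0143) while all db/db stood 14.3 above it (exact permutation p = 0.00549). With all summits Case stood 13.9 above Ctrl (exact permutation p = 0.0216) while all db/db stood 12.9 above it (exact permutation p = 0.0152). Dapa stood 20 above Ctrl (exact permutation p = 0.0238, adjusted p = 0.353), 12.3 above it without Ctrl 1 (exact permutation p = 0.0571) and 11.8 above it with all summits (exact permutation p = 0.0866). In 9 of 17 libraries its best summit lay within 1 kb of a start of a neighbouring gene, Mgat4b being the nearest. Mafg, a small MAF partner of NRF2, stood at 43.2 ± 17.8 in Ctrl and 71.7 ± 14.7 in Case, a difference of 28.5 (exact permutation p = 0.0260, adjusted p = 0.362). With 1 library left out at a time, its exact permutation p was 0.05 or more in 5 of 11 cases, up to 0.0762, and 0.0556 without Case 3. With all summits the difference was 14.4 (exact permutation p = 0.0519). The best Mafg summit lay within 1 kb of its own start in 17 libraries. In 6 it also lay that near a start of a neighbouring gene, Gm17586 being the nearest.

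Bach2, a repressor of the same family of elements, stood at 78.9 ± 6.72 in Ctrl, 68.1 ± 11.0 in Case and 58.0 ± 15.3 in Dapa, and Dapa was lower than Ctrl by -20.9 (exact permutation p = 0.0216). The best Bach2 summit lay within 1 kb of a start of its own in 7 of 17 libraries. Within 1 kb of a start the means were 54.8 in Ctrl, 65.4 in Case and 38.1 in Dapa, so Case stood above Ctrl there. The difference of Dapa from Ctrl was then -16.7 (exact permutation p = 0.281). Gsta3, a glutathione transferase of a family with closely related copies, stood at 66.7 ± 13.7 in Ctrl, 44.4 ± 29.9 in Case and 29.5 ± 16.4 in Dapa. Dapa libraries ranged from 11.4 to 46.3 and Ctrl libraries from 48.6 to 79.0. The difference was -37.1 (exact permutation p = 0.00216, the smallest the 6 against 5 libraries allow, adjusted p = 0.284). Gsta3 is described because its p was the smallest of the 55 pathway genes in this comparison. Of all 28501 genes, 6.81% were lower in Dapa than in Ctrl at an unadjusted exact permutation p under 0.05. Mgst1, a microsomal glutathione transferase, stood at 54.0 ± 13.4 in Case and 10.1 ± 16.2 in Dapa, a difference of -43.8. Cbr3, a carbonyl reductase, stood at 5.03 ± 10.8 in Case and 32.2 ± 14.3 in Dapa, a difference of 27.2 (exact permutation p = 0.00433 for both, adjusted p = 1). In Ctrl they stood at 32.3 ± 23.8 and 17.5 ± 18.9. Mgst1 differed by -14.5 in the higher-scoring first part of the equal-length lists (exact permutation p = 0.182) and by -23.7 within 1 kb of a start (exact permutation p = 0.121). Cbr3 was not tested in the first part of the lists, and differed by 17.1 with libraries lacking a summit left out (exact permutation p = 0.169). G6pdx, which supplies NADPH through the pentose phosphate pathway, had a summit in every Ctrl library, in 1 of 6 Case libraries and in 2 of 6 Dapa libraries, and its start is shared with Ikbkg. Its difference was -24.7 for Dapa against Ctrl (exact permutation p = 0.0238). With all summits it was -36.8 (exact permutation p = 0.0238). It was -2.20 in the first part of the lists (exact permutation p = 0.455) and -11.9 with libraries lacking a summit left out (exact permutation p = 0.385). Ephx1, an epoxide hydrolase, differed by 32.4 in the same comparison (exact permutation p = 0.0173), and its best summit lay within 1 kb of a start of its own in 3 of 16 libraries. Its difference was 17 within 1 kb of a start (exact permutation p = 0.294), 17.7 with all summits (exact permutation p = 0.0606) and 24.0 in the first part of the lists (exact permutation p = 0.0519). Idh1, a cytosolic source of NADPH, differed by -2.02 between Case and Ctrl (exact permutation p = 0.0411). Without Case 3 its difference was -1.62 (exact permutation p = 0.0794). With 1 library left out at a time, its exact permutation p was 0.05 or more in 8 of 11 cases. With all summits the difference was -2.64 (exact permutation p = 0.00433).

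Of these genes, 5 besides Sqstm1 also had an unadjusted p under 0.05 when both db/db groups were set against the same Ctrl libraries, so their values share those libraries with the ones above. Mafg stood 22.6 higher in db/db (exact permutation p = 0.0134, adjusted p = 0.257), and 10.52 higher with all summits (exact permutation p = 0.0878). Ephx1 stood 29.0 higher (exact permutation p = 0.0207, adjusted p = 0.290), but 13.1 with all summits (exact permutation p = 0.229) and 10.0 within 1 kb of a start (exact permutation p = 0.473). G6pdx differed by -23.4 (exact permutation p = 0.0149, adjusted p = 0.258). That value ranged widely, from -41.1 with all summits (exact permutation p = 0.000666) to -1.35 in the first part of the lists (exact permutation p = 0.779) and 0.0512 with libraries lacking a summit left out (exact permutation p = 0.994). Gsta3 differed by -29.7 (exact permutation p = 0.0236, adjusted p = 0.309), and its p was above 0.05 without Ctrl 2 (exact permutation p = 0.0577) or Ctrl 5 (exact permutation p = 0.0538). Bach2 differed by -15.8 (exact permutation p = 0.0289, adjusted p = 0.332), by -14.2 without Case 3 and Dapa 8 (exact permutation p = 0.0606) and by -3.03 within 1 kb of a start (exact permutation p = 0.808).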

How the data were processed

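ATAC-seq was performed by the study on kidneys of 17 mice, grouped here by the sample names. The authors aligned reads to mm10 with Bowtie2 within the ENCODE pipeline, dropped duplicate reads and blacklisted sites, shifted reads for the transposase offset and called peaks with MACS2 in each library separately; versions are not given in the sources used here. The deposited files hold the position of each summit and a score on the −log10 scale of a p-value or q-value, which of these is not stated. Such a score grows with depth, which is unknown without read totals, so no counting interval is given. All summits lay within the chromosome lengths of GRCm38.

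From these files, each list was ranked by score (column 5) and cut to 29702 summits. Gene windows ran from 10 kb upstream to the gene end (GENCODE release 21), and 28501 of 55413 genes with a summit in at least 2 libraries were tested by exact permutation of the difference in means, 2-sided by absolute size, with Benjamini-Hochberg adjustment. The smallest p was 0.00216 for 6 against 5 or 6 libraries and 0.000162 for 12 against 5. Regions were summits extended by 250 bp and merged, present in at least 2 libraries, and tested by Fisher's exact test. Differences were printed for members with an unadjusted p under 0.05 or else the 2 smallest, and for up to 3 pathway genes in each direction. Further member differences and regions were chosen after their values were seen. The members and all gene lists were chosen with earlier results of these data known. The sample names number separate mice, with no cage or litter given. Same-numbered Ctrl and Case libraries did not deviate together (5 correlations of -0.0472 to 0.0421 across genes), so the main tests use no pairing. The tests were checked on simulated data. Alternatives were complete and shorter lists, other windows, extensions and region filters, absent summits left out of means, a replicate block and each mouse left out. Doubling the smaller tail, region ranks and leaving out Case 3 with Dapa 8 were added after the data were seen. Python 3.11.15, numpy 2.4.6, scipy 1.17.1, pandas 2.3.3 and matplotlib 3.10.9 were used.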

Additional observations from a re-analysis of the deposited data

Results flagged for a closer look

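Among the 30 combinations of a member and a group, 2 had a library far from the others by Dixon's test, where chance alone gives about 1 in 20 (1.5 of 30). The best-summit rank percentile of Slc7a11 in Case 3 was 94.5, against 0 to 33.2 in the other Case libraries. That of Nqo1 in Dapa 12 was 35.7, against 67.8 to 86.2 in the other Dapa libraries.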

How the results depend on the processing

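The median difference of the members moved by less than the spread between mice under every alternative, from -4.87 to -0.251 for Case against Ctrl, -0.692 to 3.83 for Dapa against Case, -1.17 to 0.00774 for Dapa against Ctrl and -2.76 to 0.0358 for all db/db against Ctrl. Leaving out 1 mouse at a time gave -2.64 to 0.265, 0.389 to 3.81, -0.986 to 1.10 and -1.15 to 0.416. The count of member regions at an unadjusted Fisher's exact p under 0.05, 0 in each comparison, became 1 with all summits for Dapa against Case, Dapa against Ctrl and all db/db against Ctrl, and lay between 0 and 1 in each comparison when 1 mouse was left out. By region rank it was 1 for Dapa against Case (Keap1 +525) and 2 for Dapa against Ctrl, and without Case 3 and Dapa 8 it was 1 for Dapa against Case; the cause was not tested. Members at an unadjusted exact permutation p under 0.05 changed too. Gpx3 joined for Case against Ctrl without Case 2 (-13.3) or Case 6 (-12.9), and Slc7a11 without Case 5 (30.6). Hmox1 joined for Dapa against Case without Case 1 (12.4), and Nqo1 for Dapa against Ctrl without Ctrl 4 (27.1) or Dapa 12 (25.9). In the windows from 2 kb upstream and within 1 kb of a start, Keap1 joined for Dapa against Case (-33.4) and Dapa against Ctrl (-30.8). Within 1 kb of a start, Nqo1 also joined for Dapa against Ctrl (27.9). With libraries lacking a summit left out of the means, G6pdx in all db/db against Ctrl was 0.0512 in place of -23.4, the opposite sign, and with all summits it was -41.1. With a replicate block of the 5 Ctrl and Case numbers, which pair no mice by the labels, the median was -1.60, and 0 pathway genes passed, since 5 pairs allow no exact p under 0.0625. Doubling the smaller tail changed no call of a named gene, and gave 4 in place of 3 pathway genes lower for Dapa against Ctrl and for all db/db against Ctrl. Depth is unknown and limits absent summits to those not called.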
